A study of Mus musculus with 36 samples.

Results

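The ventricles of CUG960 +dox mice that received AAV vectors for both MBNL1 and MBNL2 were compared with the ventricles of CUG960 +dox mice that received no vector. Each cohort held 3 mice, and these 6 libraries were chosen by tissue and cohort from the 36 RNA-Seq libraries of the series, which cover 6 cohorts in 2 tissues. CUG960 mice carry the TREDT960I transgene (homozygous), a tetracycline-inducible stretch of 960 interrupted CUG repeats in the context of human DMPK, together with a hemizygous MHC-rtTA transgene in which the cardiomyocyte α-myosin heavy chain promoter drives the dox-dependent activator. The repeat RNA (CUGexp RNA) could therefore be induced in cardiomyocytes and not in the other cells of the heart. Both cohorts were on the FVB background, were fed dox from postnatal day 1 and were collected at 21 weeks of age. The treated cohort, MBNL1+MBNL2, was injected by tail vein at 9 weeks, that is 12 weeks before collection, with AAV9-3XFLAG-MBNL1 and AAV9-3XMYC-MBNL2, in which the heart-specific TNNT2 promoter drives human proteins. The +dox mice received no empty or reporter virus, so the MBNL proteins and exposure to AAV cannot be told apart. Further cohorts used below received AAV9-3XFLAG-MBNL1 alone (MBNL1) or AAV9-3XMYC-MBNL2 alone (MBNL2), also at 9 weeks, and CUG960 –dox mice carried both transgenes but were never fed dox. The comparison asks which transcripts differed in the ventricle when both proteins were supplied while the repeat RNA was still induced.

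Muscleblind-like proteins (MBNL) bind RNA and steer alternative splicing, polyadenylation and transcript stability as the heart matures. In myotonic dystrophy type 1, expanded CUG repeats in DMPK transcripts gather MBNL proteins into nuclear foci, and adult transcripts shift back toward fetal forms. In the heart the disease is known for slowed conduction, arrhythmia and contractile weakness. Ion channels, calcium handling proteins and sarcomere proteins carry out those functions. The adult cardiomyocyte runs mainly on fatty acid oxidation and has largely left the cell cycle.

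The 6 libraries held 57.8 to 97.1 M estimated reads on genes, and mitochondrial transcripts took 14.9 to 16.4% of them. The library sets were not balanced. By the leading digits of the library names, +dox replicates 1 and 2 belonged to one set (called set A here) and +dox replicate 3 to another (set B), whereas all 3 MBNL1+MBNL2 libraries were of set B. What the sets are is not given in the sources used here. Sex was not balanced either. Xist, expressed from the inactive X chromosome, was at 14.6 TPM (transcripts scaled for length and depth) in +dox replicate 3, at 0.02 and 0.03 TPM in +dox replicates 1 and 2, and at 0.08 to 0.15 TPM in the treated libraries. Ddx3y, a Y-linked gene, was at 0.08 TPM in +dox replicate 3 and at 25.4 to 32.1 TPM in the other 5. No library of the treated cohort therefore shared both set and sex with a +dox library. Replicate 3 of each other ventricle cohort was also of set B and carried Xist with next to no Y-linked reads. A term for the library set is estimated over the series from cohorts in which set and sex coincide, so it carries both. It shifts the treated libraries, which carry Y-linked reads, by a difference that includes sex. A list of 5 sex-linked genes, Xist and Y-linked ones, had a median log2 fold change against +dox of 0.51. With the set term that median was 7.80. Treatment, set and sex therefore cannot be told apart. The calls were therefore repeated under 3 alternatives: a set term in the fit, set B libraries alone, and libraries with Y-linked reads alone (chosen after seeing the data). For the leading genes and lists it is stated below which of them kept the call.

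Cardiomyocyte markers summed to 39207 to 41938 TPM in the +dox libraries and 37203 to 43585 TPM in the treated libraries, and the lung markers fixed for this check were below the filter on low counts. Atrial markers summed to 498, 510 and 169 TPM in +dox and 228, 509 and 725 TPM in MBNL1+MBNL2, so the ranges overlapped, and 1 of 11 (Nr2f1, a nuclear receptor) passed the test, with a log2 fold change of 0.67. Mbnl1 read 218, 206 and 224 CPM (counts scaled for library size) in +dox and 270, 215 and 227 CPM in MBNL1+MBNL2, a log2 fold change of 0.13 (SE 0.09, adjusted p = 0.388), and Mbnl2 had a log2 fold change of 0.08 (adjusted p = 0.647). These values are no direct check of the vectors, since the vectors encode the human proteins and the reads were counted against the mouse genome. The mouse Dmpk gene had a log2 fold change of 0.07 (adjusted p = 0.704), which is no measure of the repeat RNA, since that is made from a human DMPK transgene.

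Of 19231 genes tested, 509 (2.65%) passed the test in MBNL1+MBNL2 against +dox, at an adjusted p below 0.05 and a change of at least 1.5-fold. Among them 200 genes (1.04%) were higher and 309 (1.61%) were lower in the treated ventricles. Without the cutoff on fold change the test called 1604 genes (8.34%), 609 higher and 995 lower. The count of 509 came from a fit over all 36 libraries, and it was 298 in a fit of the 18 ventricle libraries and 163 in a fit of these 6 libraries alone. The median log2 fold change of all genes tested was -0.01. In 473 of the 509 called genes the 3 treated and 3 +dox libraries did not overlap, against 22.5% of all genes tested. Most called genes (437 of 509) were protein coding.

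Many of the calls were lost in the fits that change set and sex, some of which hold fewer libraries. Taken over all called genes, the changes themselves had a similar median size. Their median ratio to the main log2 fold changes was 1.02 with a set term, 0.98 in set B and 1.01 with Y-linked reads. Single lists shifted more. In set B the list median was -0.42 for DNA replication (-0.73 in the main fit), -0.73 for mitosis (-1.31) and -2.22 for interferon-induced genes (-1.28). These fits share libraries with the main one, so the ratios are not independent of it. Whether a lost call reflects set, sex or fewer libraries was not tested. With a set term, which carries sex as well as set, 410 of the 509 (80.6%) were still called. Among set B libraries alone, which leaves 3 treated libraries against the single +dox replicate 3 and assumes that this lone library varies like the others, 132 (25.9%) were called. Among libraries with Y-linked reads alone, 340 (66.8%) were called, and 81 genes (15.9%) were called under all 3 alternatives. Of the 15 largest rises, 15 were still called with a set term, 11 in set B and 14 with Y-linked reads. Of the 15 largest falls, 12, 6 and 15 were. Both groups of 15 were chosen among genes whose cohorts do not overlap, so the lack of overlap given for them below follows from that choice. The treated libraries did not contribute equally. Replicate 1 lay farthest from the +dox mean in 285 of the 509 genes, replicate 2 in 150 and replicate 3 in 74. Without treated replicate 1 the test called 257 genes, and without treated replicate 3 it called 694.

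**Figure D1:**
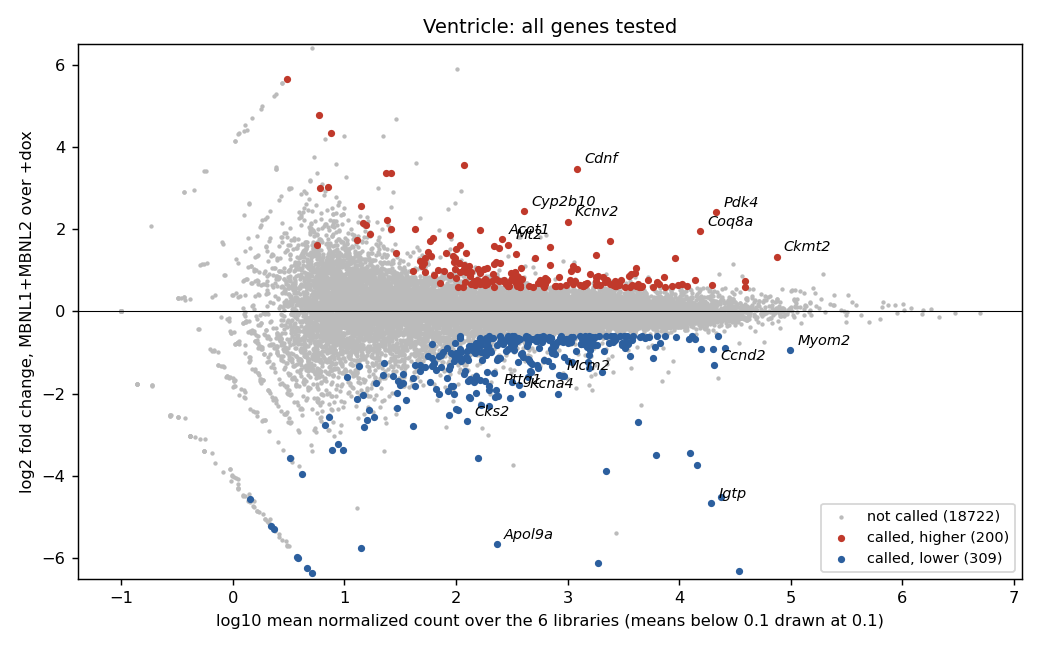
Log2 fold change of MBNL1+MBNL2 against +dox in the ventricle (vertical axis) by the log10 of the mean normalized count over the 6 libraries (horizontal axis), 1 point per gene, with the 200 genes called higher in red, the 309 called lower in blue and the rest in grey. Called genes lie at all levels of expression on both sides of 0, 10 genes lie beyond the vertical axis and are not shown, and 34 genes with a mean below 0.1 are drawn at 0.1.

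**Figure D2:**
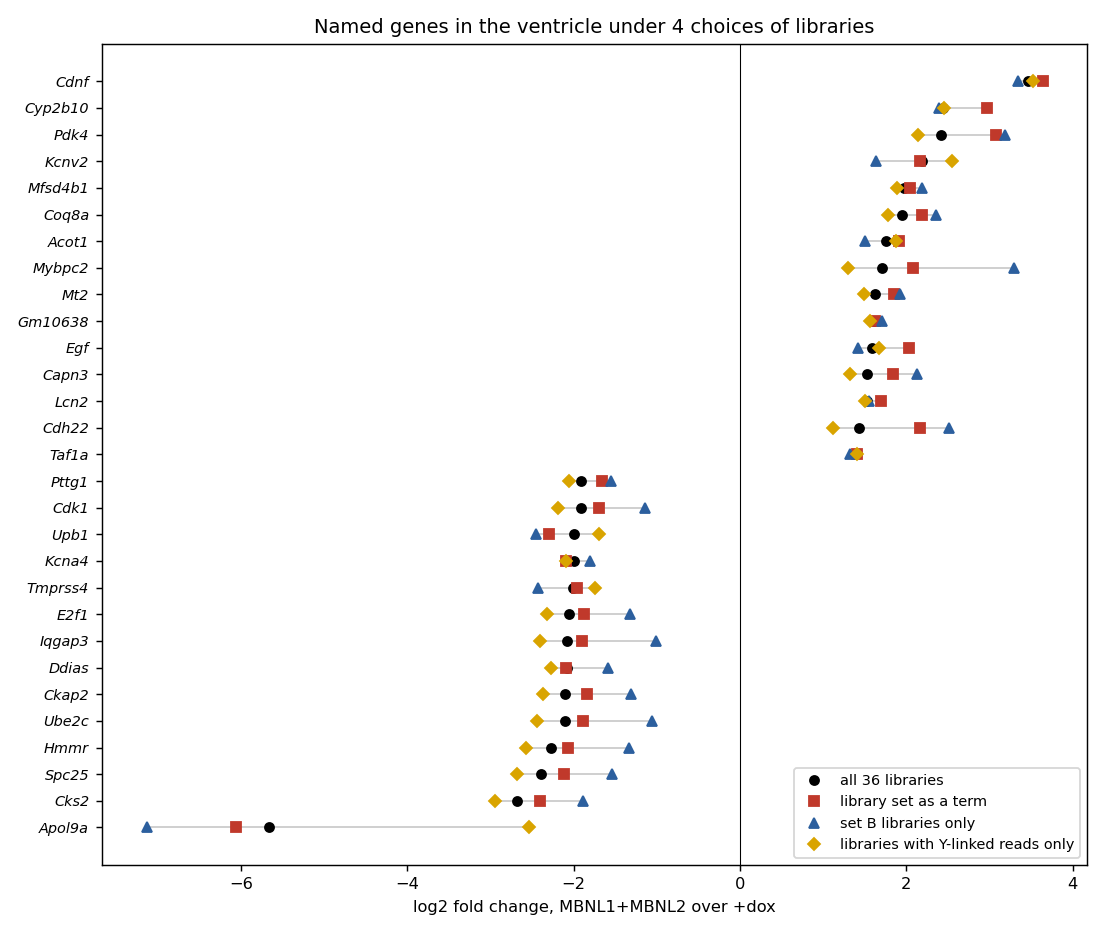
Log2 fold change of MBNL1+MBNL2 against +dox (horizontal axis) for the 15 largest rises and 14 of the 15 largest falls, under 4 choices: all 36 libraries (black circles), a set term (red squares), set B libraries (blue triangles) and libraries with Y-linked reads (yellow diamonds). These genes were chosen for cohorts that do not overlap, which fixes their side of 0 in most subsets. Cdnf stays between 3.34 and 3.64, and the cell cycle genes are nearer to 0 among set B libraries, as for Cdk1 at -1.14 against -1.91.

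The highest rise among the genes named by rule was that of Cdnf (chr2:3513030-3526376, GRCm38 with GENCODE M21, plus strand), which encodes a neurotrophic factor held in the endoplasmic reticulum. Cdnf was at 2.76, 2.51 and 2.99 CPM in +dox and at 43.4, 23.4 and 24.3 CPM in MBNL1+MBNL2. Every treated library was several times above every +dox library, and treated replicate 1 stood above the other two. The log2 fold change was 3.46 (SE 0.24, adjusted p = 5.1e-10). It was 3.64 with a set term, 3.34 among set B libraries and 3.53 among libraries with Y-linked reads, and the call held in each.

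Ckmt2, the sarcomeric mitochondrial creatine kinase that hands energy from mitochondria to the myofibrils (chr13:91853387-91876885, minus strand), was at 593.8, 560.4 and 594.8 CPM in +dox and at 1666, 1395 and 1321 CPM in MBNL1+MBNL2. The groups were far apart relative to their spread, with means of 583 ± 19.6 and 1461 ± 182 CPM (SD, n = 3 each). The log2 fold change was 1.33 (SE 0.11, adjusted p = 6.05e-09). Kcna4, which encodes the Kv1.4 channel subunit of the slow transient outward current (chr2:107290639-107298502, plus strand), moved the other way. It was at 9.71, 8.45 and 7.46 CPM in +dox and at 1.83, 1.89 and 2.68 CPM in MBNL1+MBNL2, with no overlap and a log2 fold change of -2.00 (SE 0.18, adjusted p = 9.18e-09). Among set B libraries the changes were 1.3 for Ckmt2 and -1.80 for Kcna4. Cdnf, Ckmt2 and Kcna4 were called in every alternative run, and they are the 3 called members of a list of 8 genes measured for expression. That list was chosen by the study on these samples and is not independent evidence. Of its other members, Ryr2, the sarcoplasmic calcium release channel, was at 1154, 1174 and 1060 CPM in +dox and at 1580, 1562 and 1672 CPM in MBNL1+MBNL2. All treated libraries were above all +dox libraries, but the log2 fold change of 0.51 (SE 0.07, adjusted p = 1.74e-05) was below the fold cutoff. Asph, the locus of aspartyl hydroxylase and junctin, had a log2 fold change of -0.34 (SE 0.09, adjusted p = 0.0116), also under the cutoff on fold change.

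**Figure D3:**
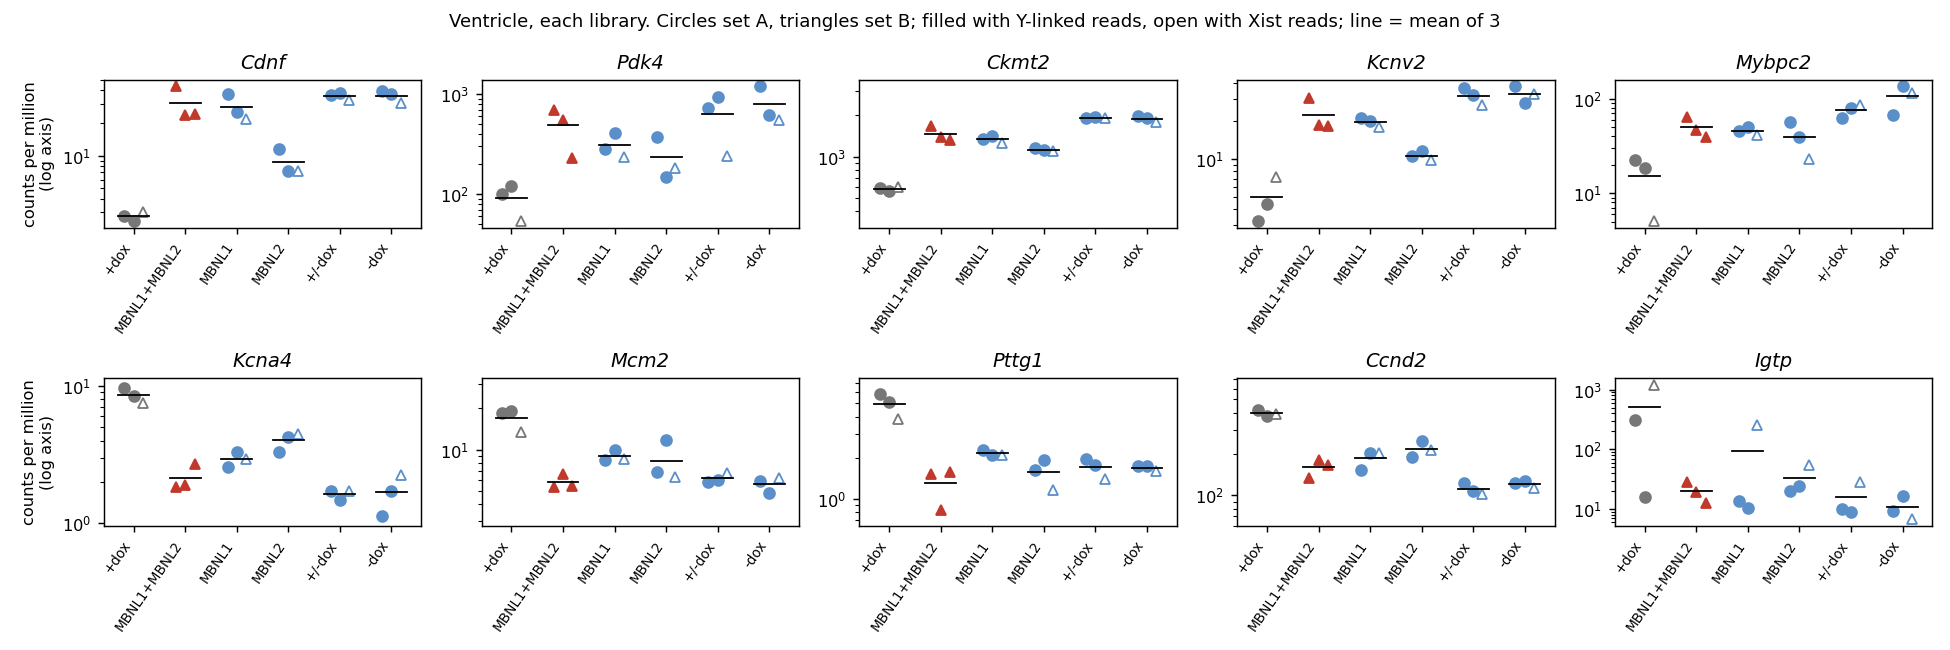
CPM (log axis) of 10 genes in each ventricle library by cohort, with circles for set A, triangles for set B, filled symbols for libraries with Y-linked reads, open symbols for those with Xist reads, and a line at the mean of 3. For Cdnf the MBNL1+MBNL2 libraries lie between 23.4 and 43.4 CPM and the +dox libraries between 2.51 and 2.99 CPM, for Kcna4 the treated libraries are the lower ones, and for Igtp the +dox libraries spread from 15.9 to 1203 CPM.

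Of 37 repolarizing potassium channel genes tested, 2 rose, 1 fell (Kcna4) and the median log2 fold change was 0.13. Over all genes tested, 2.65% were called, 1.04% higher and 1.61% lower. Kcnv2, a silent subunit that joins Kv2 channels and alters their gating, was at 3.24, 4.41 and 7.23 CPM in +dox and at 30.6, 18.5 and 18.2 CPM in MBNL1+MBNL2 (log2 fold change 2.19, SE 0.26, adjusted p = 4.15e-06). Every treated library exceeded the highest +dox library, replicate 3, and the change was 1.63 among set B libraries (adjusted p = 0.0314), with the call held under all 3 alternatives for set and sex. Kcna7, which encodes Kv1.7, rose by 0.76 on the log2 scale (SE 0.11, adjusted p = 6.05e-05), and was not called in set B (0.86, adjusted p = 0.0708). Of 20 sodium and chloride channel genes, 2 rose. Clcn1, the chloride channel of skeletal muscle, rose by 1.41 from a level of 0.169 to 0.273 CPM in +dox to one of 0.484 to 0.771 CPM, and was not called in set B (1.77, adjusted p = 0.0509). One of 17 calcium entry genes passed the test (Rem1, a small GTPase that restrains calcium channels), with a log2 fold change of 0.62 that was lost under 5 of the 6 omissions of a single library.

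None of 42 calcium release and uptake genes reached the fold cutoff, and 7 passed the test on adjusted p alone. Ryr2 and the inositol trisphosphate receptor gene Itpr2 were higher, and Casq2 (calsequestrin), Slc8a1 (sodium-calcium exchanger), S100a1, Mtm1 and Asph were lower, all by less than 1.5-fold. No connexin or conduction regulator among 22 was called. Of 19 desmosome and intercalated disc genes 1 was called (5.26%, against 2.65% of all genes), Pkp4, a plakophilin of cell junctions. It was at 238.4, 242 and 221.1 CPM in +dox and at 135.9, 170 and 137.6 CPM in MBNL1+MBNL2 (log2 fold change -0.66, adjusted p = 1.36e-05), without overlap. In set B its change was -0.58 and not called (adjusted p = 0.0521).

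Of the sarcomere genes, 3 of 18 myosin and binding protein genes, 1 of 21 troponin, tropomyosin and actin genes and 1 of 32 Z-disc and titin genes (Pdlim7, 0.75) were called. These shares were 16.7%, 4.76% and 3.13%, against 2.65% of all genes tested. Pdlim7 kept its call with a set term. It lost the call with Y-linked reads and under 2 of the 6 single omissions. The lists had median log2 fold changes of -0.05, -0.01 and 0.23. In the Z-disc and titin list 24 of 32 genes lay above 0, 4 were higher and 3 lower on adjusted p alone, and the median was 0.48 in set B and 0.10 with Y-linked reads. Mybpc2, the fast skeletal form of myosin-binding protein C, was at 22.2, 18.4 and 5.11 CPM in +dox and at 64.1, 46.8 and 39.4 CPM in MBNL1+MBNL2 (log2 fold change 1.71, SE 0.36, adjusted p = 0.00378). The low +dox value was that of replicate 3, and the change was 3.29 among set B libraries and 1.3 among libraries with Y-linked reads, called in both. Myom2, the M-protein that links thick filaments at the M-band, was at 1798, 1684 and 1848 CPM in +dox and at 913, 1025 and 827 CPM in MBNL1+MBNL2. It fell by 0.95 on the log2 scale (SE 0.17, adjusted p = 0.000542), with all treated libraries below all +dox libraries, and was called under all 3 alternatives for set and sex. Mylk4, a myosin light chain kinase, was also lower (-0.90, adjusted p = 0.0188), as was Tnnt1, the slow skeletal troponin T (-0.59, adjusted p = 0.0496). Mylk4 lost its call under 3 and Tnnt1 under 4 of the 6 single omissions.

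Of 43 genes of fatty acid use tested, 5 rose past the cutoff (1.04% of all genes were called higher). On adjusted p alone 7 were higher and 1 was lower. The median log2 fold change was 0.22 and 38 lay above 0, as did 9314 of all 19231 genes tested. Of the 5 calls, 5 held with a set term, 2 in set B (Ucp2 and Plin4) and 1 with Y-linked reads (Acot1). One held in each fit without +dox replicate 3, without treated replicate 1 or without treated replicate 2. Acot1, which cleaves cytosolic acyl-CoA, went from 0.955, 1.98 and 1.90 CPM in +dox to 6.61, 6.66 and 2.99 CPM in MBNL1+MBNL2 (log2 fold change 1.75, SE 0.40, adjusted p = 0.00574), and was not called in set B (adjusted p = 0.347). Others were Plin4 (0.63), a lipid droplet coat protein, Ucp2 (0.60), a mitochondrial carrier, and Mlycd (0.59), which removes malonyl-CoA. Each of these 3 lost its call under 3 or 4 of the 6 single omissions. Acadm, medium-chain acyl-CoA dehydrogenase, had a log2 fold change of 0.01 (adjusted p = 0.98).

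Of 40 genes for glucose uptake, glycolysis and pyruvate entry 1 was called (2.5%, against 2.65% of all genes tested). This was Pdk4, a kinase that inhibits pyruvate dehydrogenase. It was at 100.9, 121.9 and 54.1 CPM in +dox and at 688.8, 554.9 and 232.4 CPM in MBNL1+MBNL2. The groups did not overlap, but treated replicate 3 was far below the other treated libraries, and the log2 fold change was 2.41 (SE 0.51, adjusted p = 0.00345). Among set B libraries the change was 3.18 and no longer called (adjusted p = 0.259). Coq8a, an atypical kinase required for coenzyme Q synthesis, rose from 111.8, 82.3 and 65.2 CPM to 460.3, 274.3 and 269.6 CPM (log2 fold change 1.95, SE 0.18, adjusted p = 1.06e-07), and was called under all 3 alternatives for set and sex, with a change of 2.36 in set B (adjusted p = 0.0492). Within the creatine kinase list 2 of 16 rose, Ckmt2 and the adenylate kinase gene Ak4 (0.66), which was not called in set B. Of 41 nuclear genes of the respiratory chain 1 was called (2.44%), Atpif1, the inhibitory factor of ATP synthase. It was at 62.6 to 65.8 CPM in +dox and at 37.3 to 42 CPM in MBNL1+MBNL2 (log2 fold change -0.70, SE 0.09, adjusted p = 3.22e-06).

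Of 20 DNA replication genes tested, 13 fell (65%, against 1.61% of all genes called lower), none rose and the median log2 fold change was -0.73. Mcm2, a subunit of the replicative helicase, was at 18.6, 19.2 and 13.4 CPM in +dox and at 5.36, 6.70 and 5.44 CPM in MBNL1+MBNL2 (log2 fold change -1.55, SE 0.18, adjusted p = 1.24e-06). The lowest +dox library, replicate 3, was well above the highest treated one. Mcm5 (-1.38), Mcm7 (-1.11), Mcm3 and Mcm4 also fell, as did the GINS subunits Gins1 and Gins2 and the helicase component Cdc45. The ribonucleotide reductase genes Rrm1 and Rrm2, the polymerase subunit Pole, the flap nuclease Fen1 and the clamp loader subunit Rfc4 were the others. Pcna, the sliding clamp, went from 44.1, 43 and 38.4 CPM to 28.4, 32.6 and 32.6 CPM, which passed on adjusted p (0.000179) but not on fold. Summed over the list, DNA replication transcripts made up 124, 107 and 97.2 TPM in +dox and 65.9, 76.4 and 68.5 TPM in MBNL1+MBNL2. Of the 13 calls, 10 held with a set term, 1 in set B (Mcm2, -1.20, adjusted p = 0.0142) and 13 with Y-linked reads. In the fit of the 6 libraries alone 6 held, as did 6 without +dox replicate 1, and 10 to 13 held when any other library was left out. The median log2 fold change of the list was -0.63 with a set term, -0.42 among set B libraries and -0.83 among libraries with Y-linked reads. In bulk tissue, fewer cells of a type and less RNA per cell cannot be told apart.

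Ccnd2, cyclin D2, was at 419.4, 376.7 and 391.6 CPM in +dox and at 133.8, 181 and 166.5 CPM in MBNL1+MBNL2 (log2 fold change -1.30, SE 0.14, adjusted p = 9.92e-07). The cohorts were clearly separate, and the call held under all 3 alternatives for set and sex. Pttg1, Cks2 and Cdk1 were among the 15 largest falls. Pttg1, or securin, which restrains the separation of sister chromatids until anaphase, was at 5.88, 5.07 and 3.85 CPM in +dox and at 1.52, 0.825 and 1.59 CPM in MBNL1+MBNL2 (log2 fold change -1.91, adjusted p = 3.15e-06). Cks2, a binding partner of cyclin-dependent kinases, went from 4.13, 3.06 and 1.72 CPM to 0.274, 0.605 and 0.514 CPM (log2 fold change -2.68, SE 0.45, adjusted p = 0.00023). Cdk1, the kinase that drives entry into mitosis, went from 6.24, 4.17 and 2.53 CPM to 0.736, 1.14 and 1.56 CPM, a log2 fold change of -1.91 (SE 0.44, adjusted p = 0.0053). In each of these genes except Ccnd2, +dox replicate 3 was the lowest of its group, and Cdk1 lost its call without treated replicate 1. In set B, Pttg1 was still called (-1.55, adjusted p = 0.0429), whereas Cks2 (-1.89, adjusted p = 0.0749) and Cdk1 (-1.14, adjusted p = 0.403) were not. Of 22 mitosis genes 3 passed the test (Bub1, Cdk1 and Nusap1), or 13.6% against 1.61% of all genes called lower. All 22 lay below 0 with a median of -1.31. Of these 3 calls, 1 held with a set term, 0 in set B and 3 with Y-linked reads, 1 held without +dox replicate 1, 0 without treated replicate 1 and 1 without treated replicate 2. The list summed to 46.9, 30 and 23.8 TPM in +dox and to 11.2, 17.6 and 16.6 TPM in MBNL1+MBNL2, and its median was -0.73 among set B libraries.

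The promoters of the replication genes were inspected because these genes moved together. RefSeq promoters (GRCm38.p6, 250 bases before to 50 after the gene start) were searched on both strands for the letters TTTCCCGC, TTTCGCGC, TTTGCCGC and TTTGGCGC, forms of the motif known for E2F factors. At least 1 form was present in 7 of 16 DNA replication genes with a promoter entry (43.8%), in 544 of 12837 tested genes (4.24%) and in 704 of 27025 promoters overall (2.6%). Among the 9 called replication genes with an entry, 3 held a form (33.3%), and among 18 mitosis genes with an entry 1 did (5.56%). It was present in 19 of 224 of all genes called lower (8.48%) and in 5 of 138 called higher (3.62%). The following 30-base windows are shown because they lie upstream of 3 of the fallen genes, with all matched letters in capitals, 5′ to 3′ on the strand of the gene. They lie at chr8:75109345-75109374 (plus strand), chr5:138172030-138172059 (minus strand, matched as the reverse complement) and chr10:69353025-69353054 (minus strand), and the first match begins 153, 165 and 131 bases before the gene start. In Mcm5 a reverse complement match that begins 149 bases before the start overlaps the first, so the capitals cover both. A match of letters is a description of the sequence, not of binding.
Mcm5: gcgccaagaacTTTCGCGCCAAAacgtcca
Mcm7: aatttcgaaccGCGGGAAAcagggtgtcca
Cdk1: tttccgctcccTTTCGCGCtctgcgctccc

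**Figure D4:**
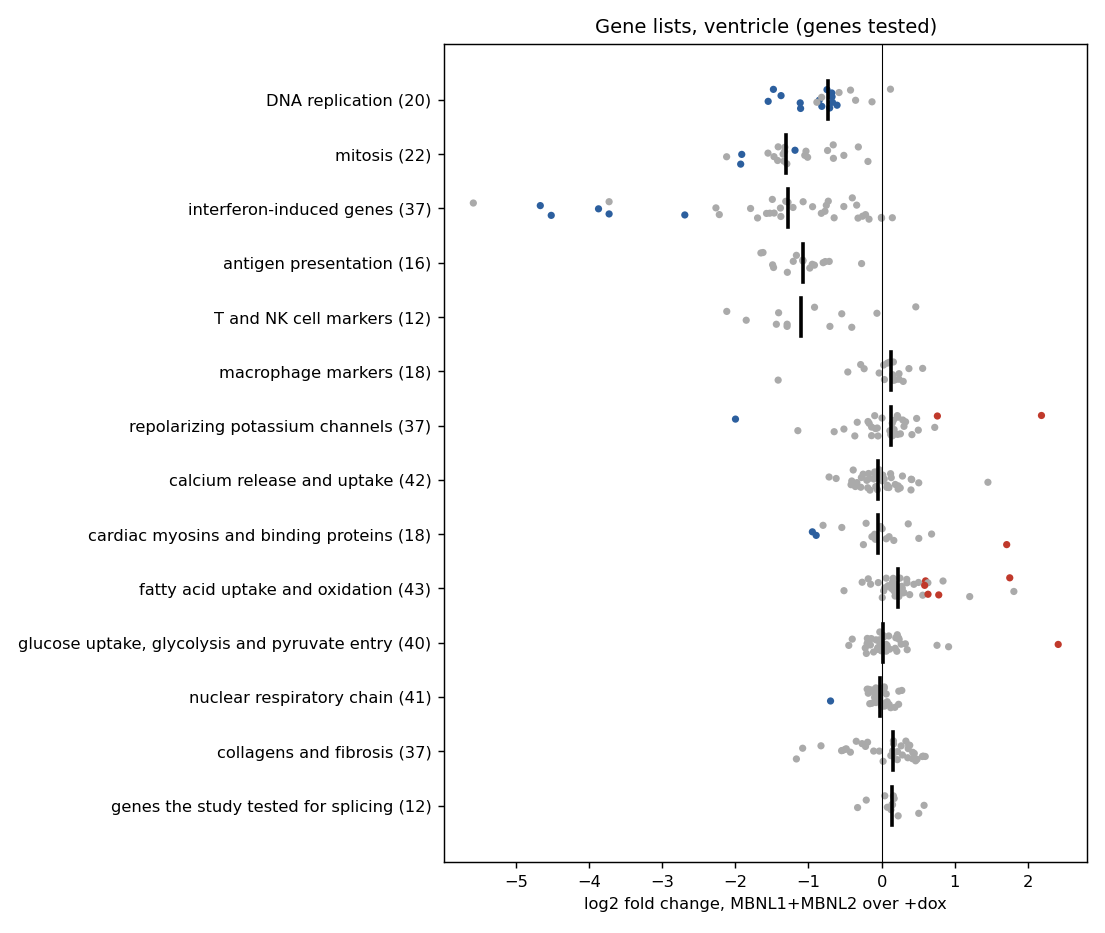
Log2 fold change of MBNL1+MBNL2 against +dox in the ventricle (horizontal axis) for the genes of 14 lists, 1 point per gene, with called genes in red (higher) or blue (lower), the number of genes tested in parentheses, a black bar at each median and points spread vertically only to separate them. The DNA replication and mitosis lists have medians of -0.73 and -1.31, the fatty acid list 0.22, and the calcium release list -0.05.

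Among the remaining members of the 15 largest falls, Spc25, a kinetochore subunit, had a log2 fold change of -2.39 (adjusted p = 0.00332), and Ddias, linked to survival after DNA damage, -2.08 (adjusted p = 0.000348). E2f1, a transcription factor of the cell cycle, had one of -2.06 (adjusted p = 0.00294). None of these 3 was called in set B. Hmmr (-2.27), Ube2c (-2.11), Ckap2 (-2.10) and Iqgap3 (-2.08), which act in spindle assembly, cyclin destruction, microtubule binding and scaffolding, each lost the call under 2 to 4 of the 6 single omissions and in set B. Ube2c overlaps a gene on the opposite strand, from which its reads may not be separable since the strand setting of the counting is not given in the sources used here. Tmprss4, a membrane serine protease, went from 9.55, 20.4 and 24 CPM to 3.89, 6.22 and 3.36 CPM (log2 fold change -2.00), and Upb1, of pyrimidine breakdown, from 2.17, 3.19 and 4.53 CPM to 1.22, 0.459 and 0.801 CPM (-1.99). Apol9a, an interferon-responsive apolipoprotein L gene, was at 1.22, 0.192 and 17.3 CPM in +dox and at 0.171, 0 and 0.181 CPM in MBNL1+MBNL2, so its fold rested on +dox replicate 3, and the call was lost without that library.

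Among the rest of the 15 largest rises, Cyp2b10, a cytochrome P450, went from 1.84, 1.61 and 1.80 CPM to 6.22, 11.1 and 11.1 CPM (log2 fold change 2.44, adjusted p = 0.0109). Mfsd4b1, of the major facilitator transporters, rose by 1.98 (adjusted p = 2.4e-07), Mt2, a metal-binding metallothionein, by 1.62 (adjusted p = 0.00077) and Capn3, the muscle calpain, by 1.53 (adjusted p = 3.12e-05). Lcn2, which binds bacterial siderophores, was at 0.682, 0.745 and 0.691 CPM in +dox and at 2.07, 2.07 and 1.96 CPM in MBNL1+MBNL2, a tight pair of groups with a log2 fold change of 1.53 (adjusted p = 0.00235), but was not called in set B (adjusted p = 0.187). Taf1a, a subunit of the RNA polymerase I selectivity factor, rose by 1.38 (adjusted p = 1.06e-07), and Gm10638, a predicted gene, by 1.61 (adjusted p = 0.0012), which was not called in set B. Egf (1.59), the epidermal growth factor, and Cdh22 (1.43), a cadherin, lost their calls under 1 and 4 of the 6 single omissions.

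Of 37 interferon-induced genes tested, 5 were called lower (13.5%, against 1.61% of all genes). These were the immunity-related GTPase genes Igtp, Iigp1, Gm12250, Irgm1 and Irgm2, and all 5 calls were lost without +dox replicate 3. None held without treated replicate 1, without treated replicate 2 or in the fit of the 6 libraries alone, and 5 held with a set term, 4 in set B and 2 with Y-linked reads. The list summed to 762, 161 and 2890 TPM in +dox and to 281, 235 and 184 TPM in MBNL1+MBNL2, so that +dox replicate 2 was below all 3 treated libraries and +dox replicate 3 was far above. The list median was -1.28. Igtp was at 308.4, 15.9 and 1203 CPM in +dox and at 27.8, 19.5 and 12.9 CPM in MBNL1+MBNL2 (log2 fold change -4.67, SE 1.23, adjusted p = 0.0183), and its call was lost without +dox replicate 3 and without any 1 of the treated libraries. It was -2.22 for the list among set B libraries and -0.30 among libraries with Y-linked reads. Antigen presentation genes had a median of -1.08 with 0 of 16 called. They summed to 1336, 655 and 3240 TPM in +dox and to 982, 774 and 480 TPM in MBNL1+MBNL2, ranges that overlap. T and NK cell markers had a median of -1.10 with 0 of 12 called. They summed to 2.67, 1.77 and 9.14 TPM in +dox and to 1.87, 4.2 and 2.07 TPM in MBNL1+MBNL2. Among libraries with Y-linked reads the medians of these lists were -0.41 and -0.06. The part of T and NK cells in the interferon values was not tested.

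No list of non-muscle cell markers had a called member. All 12 endothelial markers lay above 0 with a median log2 fold change of 0.21, and 2 of them passed on adjusted p alone (Tie1 and Eng). Fibroblast markers were above 0 in 11 of 12, with a median of 0.29, and summed to 1333, 1494 and 1334 TPM in +dox and 1837, 1782 and 2015 TPM in MBNL1+MBNL2, without overlap. Pdgfra, Gsn and Mmp2 passed on adjusted p and not on fold. None of 18 macrophage, 8 B cell, 4 neutrophil or 10 smooth muscle and pericyte markers was called. Collagens and fibrosis genes had 0 of 37 called. Their part in the other results was not tested. The fetal and hypertrophy list had 2 of 32 called (6.25%, against 2.65% of all genes), the imprinted transcript H19 (1.57) and Tnnt1. H19 kept its call with a set term and with Y-linked reads. It lost the call in the fit of the 6 libraries alone and under 2 of the 6 single omissions. Of 36 β-adrenergic signalling genes 1 was called (2.78%), Rgs6, a brake on muscarinic G protein signalling (-0.70, adjusted p = 5.54e-05).

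The combined vectors were then compared with each vector alone. No +dox library enters these differences between cohorts, although +dox libraries are part of the fit that gives their p-values. Against MBNL1 no gene was called at the thresholds used by edgeR's quasi-likelihood test (0% of 19231), with 1692 genes at an unadjusted p below 0.05 (8.8%) and 7 called by DESeq2. Cdnf averaged 27.9 ± 8.20 CPM with MBNL1 alone and 30.4 ± 11.3 CPM with both (SD, n = 3), and Ckmt2 averaged 1334 ± 83.6 and 1461 ± 182 CPM. Other genes lay further apart. Lcn2 averaged 0.821 ± 0.225 and 2.04 ± 0.062 CPM, Mt2 3.75 ± 0.159 and 6.06 ± 0.283 CPM, and Pdk4 308.5 ± 90.3 and 492 ± 235 CPM. That no gene passed does not show that the cohorts were alike, since all MBNL1+MBNL2 libraries were of set B and 2 of 3 MBNL1 libraries were of set A. With a set term 27 genes were called.

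Against MBNL2, 5 genes were called (0.026%). Cdnf was at 11.5, 7.28 and 7.2 CPM with MBNL2 alone and at 23.4 to 43.4 CPM with both, a log2 difference of 1.81 (SE 0.22, adjusted p = 0.000141). Kbtbd12, a kelch-repeat protein gene, was at 48.7, 40.6 and 40 CPM with MBNL2 alone and at 91, 63.7 and 60 CPM with both, a difference of 0.73 (adjusted p = 0.0024). Both genes were therefore higher in every combined library than in any MBNL2 library. Kcna4 was lower with both vectors (-0.91, adjusted p = 0.0349), at 3.32, 4.26 and 4.49 CPM with MBNL2 alone against 1.83 to 2.68 CPM. Celsr1, an adhesion receptor of planar polarity, was lower by 0.68 (adjusted p = 0.0325), and Cd209a, a lectin of myeloid cells present at under 1 CPM in all of these libraries, had a log2 difference of -2.07 (adjusted p = 0.0349) and was named after its value was seen. Over 15 alternatives Cdnf was called in 11, Kbtbd12 in 9, Kcna4 and Celsr1 in 7 each and Cd209a in 5. With libraries that carry Y-linked reads alone, 0 genes were called, and without MBNL2 replicate 3 the count was 1.

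Against –dox mice, which never made the repeat RNA, 222 genes were called (1.15%), 117 higher (0.608%) and 105 lower (0.546%) in MBNL1+MBNL2. The count was 103 in a fit of the ventricle libraries, 81 in one of the 2 cohorts alone and 49 in set B, and the cohorts are unbalanced for set and sex as before. The –dox and +dox comparisons share the treated libraries, so the levels of the 3 cohorts are given side by side. Of the 30 largest changes described above, 4 (Mfsd4b1, Coq8a, Capn3 and Lcn2) were also called against –dox. Coq8a averaged 86.4 ± 23.6 CPM in +dox, 335 ± 109 CPM in MBNL1+MBNL2 and 621 ± 43.6 CPM in –dox (SD, n = 3), while Cdnf averaged 30.4 ± 11.3 CPM in MBNL1+MBNL2 and 35.6 ± 4.4 CPM in –dox (log2 difference -0.23, adjusted p = 0.663). DNA replication genes had a median log2 difference of -0.05 against –dox, with 1 of 20 called (Gins2, higher).

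The 5 largest shortfalls against –dox included Ano5, Lad1, Clcn1 and Cds1. Ano5, a membrane protein of the anoctamin family active in muscle membrane repair, was at 4.38, 4.42 and 2.33 CPM in –dox and at 0.223, 0.0183 and 0.166 CPM in MBNL1+MBNL2, next to 0.102, 0.226 and 0.0461 CPM in +dox. Its log2 difference from –dox was -4.74 (SE 0.64, adjusted p = 2.26e-05), and the treated and +dox values overlapped. Lad1, a basement membrane anchor, had a difference of -2.38, Clcn1 -2.32 and Cds1, of phospholipid synthesis, -2.00. Clcn1, in contrast with Ano5, also rose over +dox, as given above, and lay between the cohorts. Kcnip2, the KChIP2 subunit of the fast transient outward current, was at 88.3, 80.2 and 99.2 CPM in –dox and at 55.9, 45.7 and 32.4 CPM in MBNL1+MBNL2 (log2 difference -0.998, SE 0.19, adjusted p = 0.00259), and it overlapped with +dox at 32.3, 34.1 and 53.6 CPM. Ryr2 (-0.46, adjusted p = 0.000145) was lower than in –dox by less than the fold cutoff.

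The 5 largest excesses over –dox were in Rimkla, Vxn, Cubn, Syn2 and Igfbpl1. Vxn, a neural differentiation gene, was at 5.61, 4.06 and 4.24 CPM in –dox, at 23.3, 25.8 and 33.5 CPM in MBNL1+MBNL2 and at 26.6, 25.7 and 28.3 CPM in +dox. The treated and +dox libraries overlapped for this gene, and the log2 difference from –dox was 2.57 (SE 0.13, adjusted p = 3.47e-15). Rimkla, which makes the dipeptide N-acetylaspartylglutamate, was at 17.2, 17.9 and 22 CPM in +dox, at 4.26, 9.34 and 5.77 CPM in MBNL1+MBNL2 and at 0.799, 0.979 and 1.23 CPM in –dox. It differed from both, by -1.56 against +dox (adjusted p = 3.6e-05) and by 2.69 against –dox (adjusted p = 1.05e-07). Cubn, an endocytic receptor, Syn2, a synapsin, and Igfbpl1, an insulin-like growth factor binding protein, had differences of 2.52, 2.52 and 2.50 from –dox and were also called lower than +dox. In all, 38 genes lay between +dox and –dox and were called against both.

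In the atria of the same cohorts, the same contrast called 50 genes (0.26%), 34 higher (0.177%) and 16 lower (0.0832%). Of the ventricle calls 26 of 509 were also called in the atria with the same sign, which is 26 of the 50 atrial calls, and the tissues come from the same mice. Among the 30 largest ventricle changes, 6 were called in the atria (Cdnf, Mfsd4b1, Coq8a, Mybpc2, Mt2 and Taf1a). Cdnf had a log2 fold change of 2.30 in the atria and Ckmt2 one of 1.50.

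The difference between the tissues, tested as an interaction, was called for 14 genes (0.0728%), with the ventricle change above the atrial one in 3 (0.0156%) and below it in 11 (0.0572%). Within-mouse pairing of the tissues raised this count to 59 (18 higher and 41 lower) and kept all 14. The count was 3 in set B, 4 in a fit of the groups compared alone and 3 without atria +dox replicate 2. Those that act in DNA replication or cell division included Cks2, Pttg1, Mcm2, Mcm7, Ccnd2 and Smc4, of which Ccnd2 was called in 6 and Mcm7 in 10 of 21 alternatives. Mcm2 was at 10.1, 8.21 and 7.22 CPM in atria of +dox mice and at 7.36, 7.70 and 10.6 CPM in atria of MBNL1+MBNL2 mice, groups that overlap, whereas the ventricle groups did not. The difference was -1.56 on the log2 scale (SE 0.25, adjusted p = 0.00402). Kcnv2 was at 6.01, 8.29 and 6.39 CPM in +dox atria and at 7.72, 7.92 and 9.30 CPM in treated atria, a difference of 1.92 (SE 0.35, adjusted p = 0.0256). DNA replication genes had a median log2 fold change of 0.01 in the atria, with 0 of 20 called, and mitosis genes one of 0.61, with 0 of 22 called. For the lists themselves the difference between tissues was not tested.

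**Figure D5:**
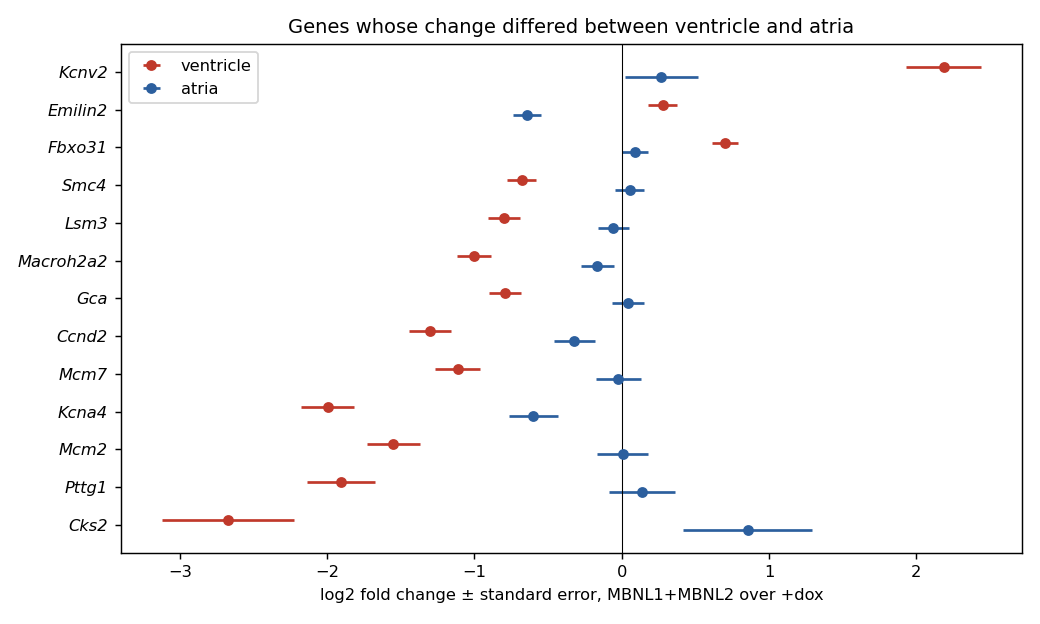
Log2 fold change of MBNL1+MBNL2 against +dox with its standard error (horizontal axis) in the ventricle (red) and the atria (blue), n = 3 libraries per cohort and tissue, for 13 of the 14 genes whose change differed between the tissues. Mcm2 lies at -1.55 (ventricle) and 0.01 (atria), and Kcnv2 at 2.19 and 0.27.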

How the data were processed

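Poly(A)-selected RNA of 36 samples was sequenced as paired 150-base reads. Per the labels and the study's methods, the authors aligned reads to mm10 with STAR 2.7.10b and counted them on GENCODE M25 genes with RSEM 1.3.1. The values used are the deposited expected counts per gene and library, which are not normalized, and the deposited TPM values, which RSEM scales by transcript length and depth within a library. The strand setting is not given in the sources used here, so opposite-strand overlapping genes may share reads.

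Expected counts were rounded to whole numbers and tested with edgeR 4.0.16 in R 4.3.3 (filterByExpr, TMM, robust quasi-likelihood fit) over all 36 libraries with 1 mean per tissue and cohort. Benjamini-Hochberg adjustment was over 19231 genes. Calls needed an adjusted p below 0.05 and a change of 1.5-fold or more. The fit was tested on simulated data. CPM are the same counts divided by the TMM-scaled library size. The p-values rest on a spread pooled within the 12 groups of 3 libraries in both tissues. Ventricle and atria of the same mouse enter that fit as if independent. Alternatives were DESeq2 1.42.0, its size factors, no low-count filter, fewer libraries, a set term, a replicate block and leaving out each library.

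Named genes were the 15 largest rises and falls among called protein-coding genes with a mean of at least 100 normalized counts and no overlap between the cohorts, the 5 largest each way by the same rule for the other comparisons, and called or exemplary members of the gene lists. The genes and lists were chosen with earlier results of these data known. The alternatives on Y-linked reads and on mouse blocks, and the lists in the closing observations, were added after seeing the values. Ventricle and atria libraries of one cohort and number deviated together (r of 0.125 to 0.519, against -0.367 to 0.181 for other numbers). Mouse was therefore used as a block in an alternative for the tissue difference. The values printed for that difference come from the main fit, which has no mouse term. Gene positions are of GRCm38 from GENCODE M21, and promoter sequence is from RefSeq. Results of 5 genes are not reported here.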

Additional observations from a re-analysis of the deposited data

Results flagged for a closer look

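The change from +dox to MBNL1+MBNL2 differed between ventricle and atria in 14 genes, of which 13 are given here, by the interaction term of edgeR's quasi-likelihood test (ventricle minus atria, log2 scale, adjusted p from 0.00371 to 0.0452). The difference was -3.53 for Cks2, -2.04 for Pttg1, -1.56 for Mcm2, -1.40 for Kcna4, -1.09 for Mcm7, -0.98 for the cyclin gene Ccnd2, -0.84 for Gca (grancalcin), -0.84 for Macroh2a2 (a histone variant), -0.74 for Lsm3 (a subunit of the spliceosomal LSm ring) and -0.73 for Smc4 (a condensin subunit). It was 0.61 for Fbxo31 (a ubiquitin ligase subunit), 0.92 for Emilin2 (an extracellular matrix glycoprotein) and 1.92 for Kcnv2. In the ventricle 12 of the 13 genes moved by at least 0.68 on the log2 scale. Emilin2 was the exception, with changes of 0.28 (ventricle) and -0.64 (atria). In the atria it was at 105, 123 and 100.3 CPM in +dox and at 73.6, 69.8 and 67 CPM in MBNL1+MBNL2. Over 21 alternatives Emilin2 was called in 20, Pttg1 and Mcm2 in 19 each, Cks2 in 17, Kcna4 in 15, Gca in 12, Smc4 and Kcnv2 in 11 each, Mcm7 in 10, Macroh2a2 and Lsm3 in 9 each, Fbxo31 in 7 and Ccnd2 in 6. The treated libraries of both tissues were all of set B, and the part of set or sex in these differences was not tested beyond the values given under the processing alternatives.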

How the results depend on the processing

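Each design has 3 mice per cohort, and set, sex and treatment could not be separated with these libraries. Against +dox, the main count of 509 genes moved to 298 in the 18 ventricle libraries, 163 with the 2 cohorts alone and 1604 without the fold cutoff, and leaving out 1 library gave 257 (without MBNL1+MBNL2 replicate 1) to 694 (without MBNL1+MBNL2 replicate 3). It was 489 with DESeq2 size factors, 404 without the low-count filter, 734 with a set term, 418 in set B, 461 with Y-linked reads and 654 by DESeq2. Against MBNL1 the count of 0 became 1 without the filter, 27 with a set term, 14 in set B and 7 by DESeq2, and 0 to 10 when 1 library was left out (10 without MBNL1 replicate 3, 5 without MBNL1 replicate 2). Against MBNL2 the count of 5 became 10 without the fold cutoff, 80 with a set term, 12 in set B, 31 by DESeq2 and 0 with Y-linked reads, in the 18 ventricle libraries or with the 2 cohorts alone, and 1 to 11 when 1 library was left out (1 without MBNL2 replicate 3, 3 without MBNL1+MBNL2 replicate 2, 11 without MBNL1+MBNL2 replicate 3). Against –dox the count of 222 became 632 without the fold cutoff, 49 in set B, 103 in the ventricle libraries and 81 with the 2 cohorts alone, and 130 to 322 when 1 library was left out (130 without –dox replicate 1, 141 without MBNL1+MBNL2 replicate 2 or 3). The tissue difference of 14 became 30 with a set term, 3 in set B, 4 with the groups compared alone, 65 by DESeq2 and 59 with a mouse block, and 3 to 33 when 1 library was left out. It was 33 without ventricle MBNL1+MBNL2 replicate 3, 3 without atria +dox replicate 2, 4 without ventricle MBNL1+MBNL2 replicate 1, 5 without ventricle +dox replicate 1 or ventricle MBNL1+MBNL2 replicate 2, 6 without ventricle +dox replicate 2, 9 without atria +dox replicate 3 or atria MBNL1+MBNL2 replicate 1 and 8 without atria MBNL1+MBNL2 replicate 2. A replicate block by number gave 562, 13 and 26 genes for +dox, MBNL2 and the tissue difference, but same-numbered ventricle libraries of MBNL1+MBNL2 and +dox did not deviate together (r of -0.0909, 0.0607 and -0.083), so the numbers do not pair them. The cause of these shifts was not tested. Of 77 named called genes, 20 were called in every alternative. A few uncalled log2 fold changes against +dox changed sign: Ano5 (0.10) at -0.25 with Y-linked reads and from -0.41 to 0.83 when 1 library was left out, and Vxn (0.04) at -0.042 in set B and from -0.13 to 0.14 when 1 library was left out.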

Other observations

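Further gene groups not described above were assembled after their values had been seen, so their counts are descriptions and were not tested as groups. Of 24 sterol synthesis genes, 22 lay below 0 in MBNL1+MBNL2 against +dox, with a median log2 fold change of -0.33, and 5 were called lower (Sqle, Idi1, Lss, Acat2 and Tmem97). Of 18 genes known to respond to glucocorticoids, 7 were called higher (Fkbp5, Mt2, Lcn2, Pdk4, Bcl6, Hif3a and Lrg1), with a median of 0.47. Of 25 cyclin and cyclin-dependent kinase genes, 6 were called lower (Ccnd2, Ccne1, Cdk1, Cks1b, Cks2 and E2f1), with a median of -0.32. The share called over all genes was 1.04% higher and 1.61% lower. Mt2 and Ccnd2 kept their calls in every alternative. Pdk4, Lcn2, Cks2, Cdk1, E2f1 and Acat2 were not called in set B, and Bcl6 neither there nor with Y-linked reads. The alternatives for the other called members of these lists are not given here.

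In 12 of the 19231 genes tested the treated ventricles lay beyond both +dox and –dox and were called against each, 10 lower and 2 higher. The same 3 treated libraries enter both comparisons, so the calls against +dox and –dox are not independent. The alternatives given below for these genes repeat the +dox comparison only. Cish, a feedback inhibitor of cytokine receptor signalling, was at 63.7, 68.2 and 71.3 CPM in +dox, at 71.8, 53 and 66.8 CPM in –dox and at 31.8, 34.3 and 29.6 CPM in MBNL1+MBNL2, so that the treated libraries were below every library of both other cohorts. Myom2 was at 1143, 1338 and 2230 CPM in –dox, above the 827 to 1025 CPM of MBNL1+MBNL2. Acsl6, a long-chain acyl-CoA synthetase, was at 11.9, 16.1 and 11.6 CPM in MBNL1+MBNL2, and at 20.9 to 25.3 CPM in +dox and 16.2 to 22.8 CPM in –dox. Sv2a (a synaptic vesicle protein), Tnfaip8, Cdkl1, Lypd6, Cd209a, Gm40604 and Gm47251 were the other lower genes, and Lcn2 and Gm10069 the higher ones. Of these 12 genes, 9 were still called against +dox with a set term (not Cdkl1, Gm40604 and Gm47251), 4 in set B (Cish, Myom2, Acsl6 and Tnfaip8) and 7 with Y-linked reads (not Cdkl1, Gm40604, Gm47251, Lypd6 and Tnfaip8). With a set term Cish had a log2 fold change of -1.12 against +dox and Lcn2 one of 1.70.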
